A study of Mus musculus with 3 samples.

Results

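The collagen chains are the genes whose mouse symbol reads Col, a number, the letter a and a number, such as Col1a1. RefSeq transcripts of 43 such genes were listed among the 22706 genes of the series, and 24 of the 43 reached 1 FPKM in at least 1 library, out of 11463 genes that did so with a transcript of 300 nt or more. FPKM divides the fragments of a transcript by its length and by the library's mapped fragments, which puts different genes on a scale per length. It does not correct for other differences between genes in how fully fragments are recovered and mapped. The 24 fall into 9 fibrillar chains, 3 basement membrane chains, 6 chains of beaded filament or hexagonal networks and 6 others.

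The libraries come from C2C12, an ATCC line of mouse myoblasts, described in the labels as a mesenchymal precursor line. The first group, titled shKSRP-GM, holds cells said by the labels to carry shKSRP (a hairpin RNA directed at KSRP) in growth medium with 20% fetal bovine serum and no added agent. KSRP is the product of Khsrp, an RNA-binding protein that promotes decay of mRNAs with AU-rich elements. The second group, titled mock-DM+BMP2, is mock-transfected cells given BMP2, a bone morphogenetic protein that turns these cells towards bone. The protocol gives 100 to 300 ng/ml for BMP2 and 2% horse serum for the differentiation medium, and how long cells were treated was not settled from the labels. The reference for both, titled mock-GM, is mock-transfected cells in the same growth medium with no agent. By title, the BMP2 library differs from mock-GM in medium as well as in BMP2. No library had the differentiation medium without BMP2, so the parts of medium and BMP2 cannot be told apart. Below, with BMP2 means in the BMP2 library. Each group is 1 library, so there is no replicate spread, no test and no p-value, and a difference is described only by its size. A gene is called higher or lower where log2((FPKM + 1)/(FPKM + 1)) is 1 or more in size, that is, 2-fold on FPKM + 1. For genes at low FPKM this ratio is smaller in size than that of the FPKM themselves.

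Khsrp itself does not separate the library labelled shKSRP from the mock library. It had 28.4 ± 0.64 FPKM in the library labelled shKSRP, 27.1 ± 0.67 in the BMP2 library and 31.4 ± 0.85 in the mock library (chr17:57160472-57170930, mm9), so the library labelled shKSRP held 90.6% of the mock level. On RefSeq transcripts alone the direction turns, at 28.4, 27.1 and 15.5 FPKM in the same order of libraries. Each direction below that involves this library carries that doubt. Values after ± are the distance from the FPKM to the upper bound of its deposited 95% interval, summed in quadrature over the transcripts of a gene. They cover counting and assignment error only, and no spread between cultures, as each group is 1 library. Whether PCR copies were marked is not known here, and unmarked copies would make these distances too small. The distances correspond to about 68.5 M (mega) fragments in the library labelled shKSRP, 60.4 M with BMP2 and 62.1 M in mock. For collagen chains at 10 FPKM or more the median distance was 1.26%, 1.70% and 1.76% of the FPKM in that order of libraries. The myoblast markers Myod1, Myf5, Des, Cdh15 and Chrna1 were at 5.02 FPKM or more in every library, but not at like levels. Cdh15 had 31.1 ± 0.88 FPKM in the library labelled shKSRP, 5.02 ± 0.34 with BMP2 and 38.3 ± 0.93 in mock, Myf5 had 48.4 ± 1.2, 9.09 ± 0.54 and 7.75 ± 0.50, and Pax7 had 2.90 ± 0.20, 0.463 ± 0.075 and 0.118 ± 0.042. The 6 myoblast markers summed to 434 FPKM in the library labelled shKSRP, 305 with BMP2 and 451 in mock. Endothelial, epithelial and glial markers were each below 1 FPKM in every library. Of 4 adipocyte markers 1 was at 1 FPKM or more in the library labelled shKSRP, 2 with BMP2 and 1 in mock: Pparg had 8.45 ± 0.68, 13.6 ± 0.94 and 19.5 ± 1.00 FPKM and Fabp4 had 0.531 ± 0.25, 5.10 ± 0.82 and 0.613 ± 0.28, while Adipoq and Plin1 were at 0.0588 FPKM or less. Of 3 blood markers matched, Hba-a1 had 2.25 ± 0.66, 0.921 ± 0.38 and 2.76 ± 0.73 FPKM, and Ptprc and Itgam were at 0.00598 FPKM or less. The part of these markers in the collagen values was not tested.

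Collagens are trimers of chains that wind around each other through glycine-rich repeats. Fibrillar collagens make the cables of bone, skin, tendon and cartilage, type IV makes the sheet of basement membranes, type VI makes beaded filaments around cells such as muscle fibres, and types VIII and X make hexagonal lattices. Bone matrix is built mainly from type I collagen, and type X marks the hypertrophic cartilage that bone replaces.

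Against the mock library, 9 of the 24 chains were higher and 2 lower in the library labelled shKSRP, and 9 were higher and 0 lower in the BMP2 library. Over all genes tested, 11.0% were called higher and 12.9% lower in the library labelled shKSRP, and 9.21% higher and 8.95% lower with BMP2. The median log2 ratio of the 24 chains was 0.61 in the library labelled shKSRP and 0.73 with BMP2, beside −0.02 and 0.03 over all genes. Both comparisons share the mock library, so a low or high mock value moves both. Col1a1, Col1a2, Col6a1, Col6a2 and Col8a2 were called higher in both. Col5a2, Col6a3, Col14a1 and Col15a1 were called higher in the library labelled shKSRP and not in the BMP2 library, and Col5a1, Col10a1 and Col24a1 the other way round. Col2a1 was called lower in the library labelled shKSRP and higher in the BMP2 library. Col7a1 was lower in the library labelled shKSRP and the other 10 chains passed the threshold in neither comparison.

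These counts describe the chains and are not support for a trend. Of the 24, 16 were at 1 FPKM or more in every library, while Col10a1, Col11a1, Col17a1 and Col24a1 entered through the BMP2 library alone and Col14a1 and Col15a1 through the library labelled shKSRP alone, and such genes had to differ. Collagen mRNAs are also long, from 3130 to 10843 nt among the 24. Genes of 3000 nt or more had a median log2 ratio of 0.26 in the library labelled shKSRP against mock, with 16.1% called higher and 7.18% lower, and of 0.19 in the BMP2 library against mock, with 11.6% and 6.30%. After a running median over length was subtracted, the chains' median was 0.17 in the library labelled shKSRP and 0.49 with BMP2. In bulk RNA, fewer cells that make a transcript and less of it per cell cannot be told apart.

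**Figure D1:**
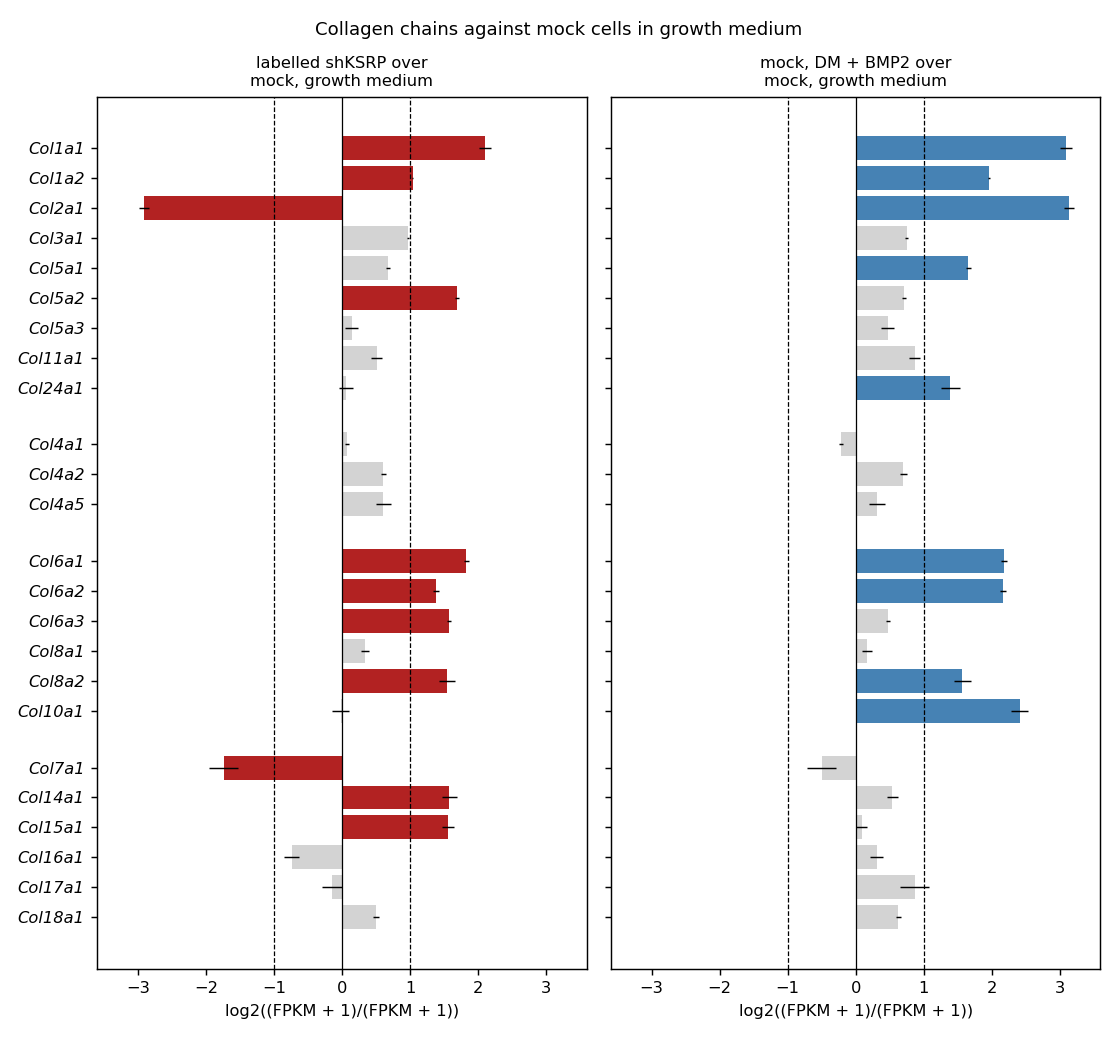
Log2 ratio of each collagen chain in the library labelled shKSRP (left) and in the mock library with DM + BMP2 (right), each over mock cells in growth medium, on log2((FPKM + 1)/(FPKM + 1)). Coloured bars are past 2-fold (dashed lines), grey bars are not, and black lines are the error from the deposited intervals; Col2a1 stands at −2.91 on the left and 3.14 on the right.

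Promoter sequences are shown for the chains that were called higher in both comparisons and have an entry, Col1a2, Col6a1, Col6a2 and Col8a2. They are also shown for Col5a1, Col10a1 and Col24a1, called higher in the BMP2 library alone. Each is the 250 bases before an annotated start, 5′ to 3′ on the strand of the gene, from RefSeq on GRCm38.p6. Capitals mark 3 motifs, searched on both strands, where matches can overlap each other. TATAAA is a common box that places the start of transcription. CCAAT is the core read by the factor NF-Y. GGGCGG is the core read by the factor Sp1.
Col1a2, chr6:4505368-4505617, plus strand: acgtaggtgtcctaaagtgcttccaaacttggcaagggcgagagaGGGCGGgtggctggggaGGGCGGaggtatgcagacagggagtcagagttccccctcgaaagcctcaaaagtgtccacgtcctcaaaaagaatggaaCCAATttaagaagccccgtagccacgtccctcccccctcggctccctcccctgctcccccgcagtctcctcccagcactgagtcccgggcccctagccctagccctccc
Col6a1, chr10:76726045-76726294, minus strand: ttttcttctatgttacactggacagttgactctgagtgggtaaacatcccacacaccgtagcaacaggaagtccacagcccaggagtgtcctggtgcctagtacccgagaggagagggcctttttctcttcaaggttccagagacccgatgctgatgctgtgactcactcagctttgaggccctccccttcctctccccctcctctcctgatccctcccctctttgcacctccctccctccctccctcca
Col6a2, chr10:76623405-76623654, minus strand: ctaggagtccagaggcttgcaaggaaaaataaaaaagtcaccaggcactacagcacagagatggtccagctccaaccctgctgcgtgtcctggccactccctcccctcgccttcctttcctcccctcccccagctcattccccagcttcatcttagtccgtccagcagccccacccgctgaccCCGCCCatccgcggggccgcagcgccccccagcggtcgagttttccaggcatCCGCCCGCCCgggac
Col8a2, chr4:126286544-126286793, plus strand: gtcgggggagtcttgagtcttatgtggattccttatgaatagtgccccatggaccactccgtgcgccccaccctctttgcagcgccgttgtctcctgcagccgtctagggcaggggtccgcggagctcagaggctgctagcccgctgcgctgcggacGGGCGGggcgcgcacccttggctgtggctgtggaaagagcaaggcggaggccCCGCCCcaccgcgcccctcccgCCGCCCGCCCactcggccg
Col5a1, chr2:27886175-27886424, plus strand: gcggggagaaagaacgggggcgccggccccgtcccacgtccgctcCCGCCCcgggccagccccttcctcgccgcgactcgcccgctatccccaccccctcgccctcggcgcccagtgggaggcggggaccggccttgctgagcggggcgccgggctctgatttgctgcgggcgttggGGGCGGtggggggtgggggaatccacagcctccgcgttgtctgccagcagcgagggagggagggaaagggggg
Col10a1, chr10:34389731-34389980, plus strand: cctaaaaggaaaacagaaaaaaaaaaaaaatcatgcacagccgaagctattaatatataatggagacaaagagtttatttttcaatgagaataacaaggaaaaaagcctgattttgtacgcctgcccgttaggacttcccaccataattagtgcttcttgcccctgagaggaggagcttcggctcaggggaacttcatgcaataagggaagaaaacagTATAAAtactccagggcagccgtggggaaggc
Col24a1, chr3:145292222-145292471, plus strand: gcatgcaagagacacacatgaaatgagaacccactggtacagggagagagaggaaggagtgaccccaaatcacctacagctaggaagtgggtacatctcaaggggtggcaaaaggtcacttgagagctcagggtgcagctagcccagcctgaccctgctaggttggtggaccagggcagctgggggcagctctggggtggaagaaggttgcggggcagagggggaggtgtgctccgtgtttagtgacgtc
GGGCGG or its complement was found in the windows of 12 of the 20 tested chains with an entry, beside 32.7% of 32851 windows of all genes. CCAAT was found in 10 of 20, beside 33.8%, and TATAAA in 3 of 20, beside 12.4%. A chain counts where any of its windows matches, with 22 windows for the 20 chains. The shares over all genes are per window, so the units are unlike. GC content of the tested chains' windows ran from 35.2% (Col3a1) to 76.4% (Col5a1), and of those with GGGCGG from 54.0% (Col4a5) upwards. The median over all windows was 52.4%. The part of GC content in the motif counts was not tested. The Col10a1 window holds TATAAA at 32 bases before the start and neither other motif. The Col6a1 and Col24a1 windows hold none of the 3, whereas the Col6a2 window shown holds GGGCGG at 67, 15 and 11 bases before its start. The Col1a2 window holds CCAAT at 109 bases before the start and GGGCGG at 205 and 188. The 7 sequences share no motif of the 3, and a match is a run of letters and not a measured site.

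The fibrillar class carried most collagen mRNA in every library. Its summed level was 1431 ± 5.4 FPKM in the library labelled shKSRP, 1750 ± 6.3 with BMP2 and 652.4 ± 4.0 in mock, which is 75.2%, 76.6% and 74.5% of collagen FPKM in those libraries. The summed level of all 43 chains was 1903 ± 5.9 FPKM in the library labelled shKSRP, 2283 ± 7.4 with BMP2 and 875.9 ± 4.5 in mock. These are 2.17 and 2.61 times the mock sum, and 2.38 and 2.60 times it when FPKM is recast on a fixed length per gene. As a share of the FPKM of all genes, the chains made up 0.357% in the library labelled shKSRP, 0.405% with BMP2 and 0.129% in mock. The size of the gap to mock thus depends on the scale, and the sums were not corrected for the length trend. Of the 4 classes, the network class had the largest ratio to mock, 2.94 in the library labelled shKSRP and 3.45 with BMP2, and the basement membrane class had 1.26 and 1.16, or 1.26 and 0.947 on a fixed gene length, where the BMP2 direction turns. Basement membrane chains made up 4.0% of collagen FPKM in the library labelled shKSRP, 3.06% with BMP2 and 6.88% in mock. Fibroblasts make much collagen, and of 5 fibroblast or stromal markers Pdgfra and Dcn were at 1 FPKM or more in every library, with list sums of 9.08 FPKM in the library labelled shKSRP, 28.8 with BMP2 and 14.4 in mock. Thy1 and Lum had values of 0 in the library labelled shKSRP and in mock, and at most 0.0164 FPKM with BMP2, and the part of these markers in the sums was not tested. The 3 most abundant chains held 68.1%, 62.8% and 64.8% of collagen FPKM in these libraries.

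**Figure D2:**
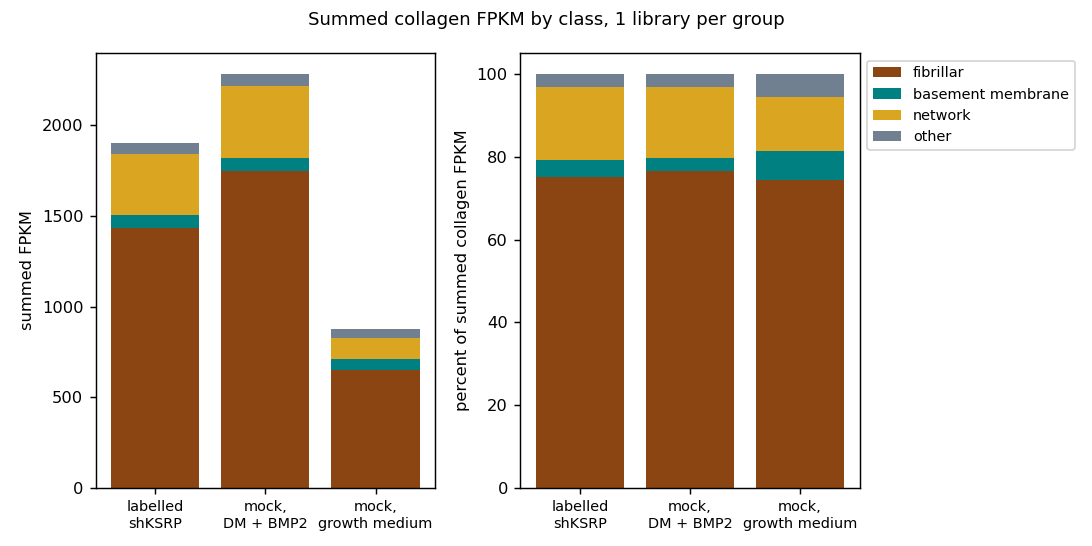
Summed FPKM of the fibrillar, basement membrane, network and other collagen chains (left) and the percent of summed collagen FPKM in each class (right), for the library labelled shKSRP, the mock library with DM + BMP2 and mock in growth medium, 1 library each. The totals are 1903, 2283 and 875.9 FPKM, with a fibrillar share between 74.5% and 76.6%.

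Type I collagen is the main fibre of bone. Its α1 chain Col1a1 (chr11:94797584-94813170, plus strand, mm9) had 15.67 ± 0.49 FPKM in the library labelled shKSRP, 31.95 ± 0.87 with BMP2 and 2.879 ± 0.23 in mock. It rose in both against mock, with log2 ratios of 2.10 ± 0.09 in the library labelled shKSRP and 3.09 ± 0.09 with BMP2, and both stayed past 2-fold under all alternatives run. Its partner Col1a2 (chr6:4455697-4491543, plus strand) had 431.3 ± 2.7 FPKM in the library labelled shKSRP, 813.3 ± 4.8 with BMP2 and 209.0 ± 1.6 in mock. It rose too, by a log2 ratio of 1.04 in the library labelled shKSRP and 1.96 with BMP2. The part of this gain that lies on RefSeq transcripts is smaller. With RefSeq transcripts alone the ratios were 0.49 and 0.87, both under the threshold, since an assembled model of the 3′ part held 136.4 FPKM in the library labelled shKSRP and 429.2 FPKM with BMP2, against none in mock. The library labelled shKSRP also passed no threshold for Col1a2 on a fixed gene length, at 0.93.

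The level of Col1a1 per length was far under that of Col1a2 in each library, although the type I trimer holds more α1 than α2 chains. The ratio of Col1a1 to Col1a2 FPKM was 0.0363 ± 0.0012 in the library labelled shKSRP, 0.0393 ± 0.0011 with BMP2 and 0.0138 ± 0.0011 in mock. Both ratios lie above the mock ratio by more than their interval error, on a fixed gene length as well, at 0.0409, 0.0461 and 0.0144.

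Col2a1, the chain of cartilage fibrils (chr15:97806033-97835155, minus strand), was the chain with opposite calls. It had 0.0556 ± 0.025 FPKM in the library labelled shKSRP, 68.84 ± 1.2 with BMP2 and 6.950 ± 0.36 in mock. It fell in the library labelled shKSRP, at a log2 ratio of −2.91 ± 0.07, and rose with BMP2, at 3.14 ± 0.07. The library labelled shKSRP over the BMP2 library gave −6.05 ± 0.04. None of these calls changed under the alternatives run. Sox9, the factor known to switch on Col2a1 in cartilage, had 6.23 ± 0.29 FPKM in the library labelled shKSRP, 18.1 ± 0.53 with BMP2 and 13.7 ± 0.46 in mock. Of the 5 chondrocyte markers Sox9 was the only one at 1 FPKM or more, with a list sum of 6.28 FPKM in the library labelled shKSRP, 18.3 with BMP2 and 13.9 in mock. Acan, the main cartilage proteoglycan, was listed at 0 in the library labelled shKSRP and in mock, and at 0.00217 FPKM with BMP2. The part of these markers in the Col2a1 values was not tested.

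The FPKM assigned to Col2a1 transcript models differed in a cassette exon as well. Reads on the exon were not counted, so a form listed at 0 is an assignment and not a measured absence. RefSeq lists a form with an extra exon of 204 nt (chr15:97830834-97831037, mm9), which codes for a cysteine-rich domain and is known from precartilage cells, and a form without it. The form with the exon had 0.0556 FPKM in the library labelled shKSRP, 24.1 with BMP2 and 3.14 in mock, and the form without it was listed at 0 in the library labelled shKSRP and with BMP2, against 3.81 ± 0.27 FPKM in mock. Of the FPKM on transcripts that span this exon, 100% held it with BMP2 and 45.2% held it in mock. The BMP2 library had a further 44.72 ± 1.0 FPKM on an assembled model of 3862 nt that starts after the exon and shows neither form.

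Col3a1, the chain of type III fibrils in soft tissue, was the most abundant chain in the library labelled shKSRP and in mock. It had 456.8 ± 2.2 FPKM in the library labelled shKSRP, 392.1 ± 2.1 with BMP2 and 232.9 ± 2.7 in mock (chr1:45368383-45406551, plus strand). The log2 ratio was 0.97 ± 0.02 in the library labelled shKSRP and 0.75 ± 0.02 with BMP2, neither past 2-fold. Here the transcript models decide the call. In mock, 115.8 ± 2.3 FPKM lay on an assembled model of 2106 nt that covers 37.8% of the RefSeq exons, and the same fragments count for less on the full length of 5564 nt. On a fixed gene length the ratios were 1.53 and 1.31, and on RefSeq transcripts alone 2.23 and 2.01.

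Type V chains join type I in fibrils and set their width. Col5a1 (chr2:27741945-27895030, plus strand) had 115.6 ± 1.1 FPKM in the library labelled shKSRP, 228.8 ± 2.3 with BMP2 and 71.95 ± 1.3 in mock. It rose with BMP2, at a log2 ratio of 1.66 ± 0.03, and stood at 0.68 ± 0.03 in the library labelled shKSRP, which came to 1.17 on a fixed gene length. Col5a2, which lies 24.6 kb from Col3a1, had 407.5 ± 3.9 FPKM in the library labelled shKSRP, 206.4 ± 2.1 with BMP2 and 125.6 ± 2.0 in mock (chr1:45431176-45560127, minus strand). It rose in the library labelled shKSRP, at 1.69 ± 0.03, a call that held under all alternatives run, and stood at 0.71 ± 0.03 with BMP2, or 1.10 on a fixed gene length. The ratio of Col5a1 to Col5a2 was 0.284 ± 0.0038 in the library labelled shKSRP, 1.11 ± 0.016 with BMP2 and 0.573 ± 0.014 in mock. On a fixed gene length these were 0.454, 0.801 and 0.597, in the same order of libraries, and on RefSeq transcripts alone 0.683, 0.534 and 0.165, in another order. The third chain Col5a3 had 2.758 ± 0.16, 3.736 ± 0.20 and 2.421 ± 0.19 FPKM in the library labelled shKSRP, with BMP2 and in mock.

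The other fibrillar chains were rare. Col24a1, which in mouse is found in forming bone, had 0.2456 ± 0.044 FPKM in the library labelled shKSRP, 2.131 ± 0.24 with BMP2 and 0.1928 ± 0.074 in mock. Its log2 ratio with BMP2 was 1.39 ± 0.14, a rise that rests on assembled models, as no RefSeq transcript of it was above 0 there. Col11a1, a cartilage chain, had 0.6391 ± 0.070, 1.104 ± 0.099 and 0.1496 ± 0.036 FPKM in the same order, the lowest top level of the 24. Just outside the limit of 1 FPKM stood Col27a1, another cartilage fibrillar chain, at 0.5859, 0.9017 and 0.0935 FPKM.

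**Figure D3:**
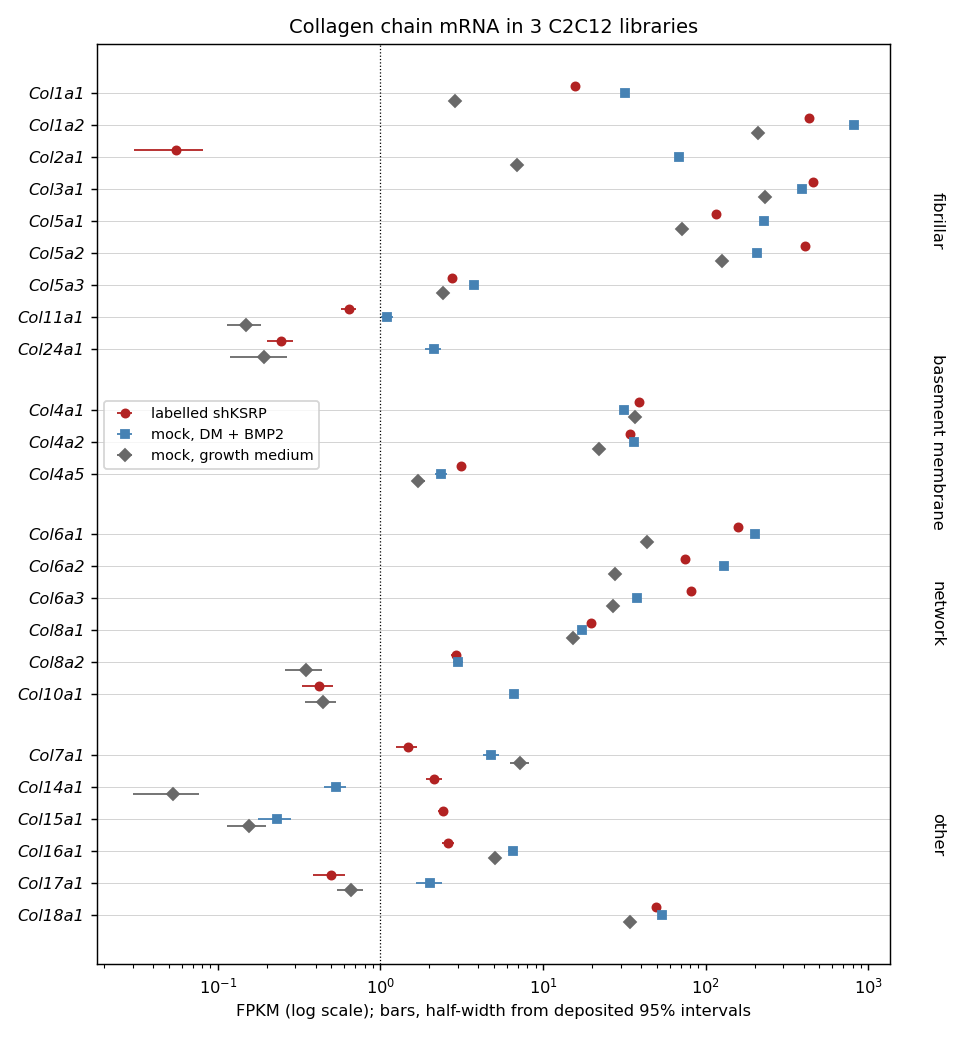
FPKM of the 24 collagen chains on a log axis, by class, with circles for the library labelled shKSRP, squares for mock with DM + BMP2 and diamonds for mock in growth medium; bars are the error from the deposited intervals and the dotted line is 1 FPKM. Col1a2 spans 209.0 to 813.3 FPKM and Col2a1 spans 0.0556 to 68.84 FPKM.

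Basement membrane chains passed the threshold in no comparison as reported, though on RefSeq transcripts alone Col4a2 was higher in the library labelled shKSRP than with BMP2, at a log2 ratio of 1.49. Col4a1 and Col4a2 make the common type IV trimer and start 3 bases apart on opposite strands (mm9). Col4a1 had 38.77 ± 0.58 FPKM in the library labelled shKSRP, 31.36 ± 0.55 with BMP2 and 36.58 ± 0.63 in mock. Col4a2 had 34.10 ± 0.55, 36.18 ± 0.92 and 21.92 ± 0.51 FPKM in those libraries. Although the pair shares a promoter region, their log2 ratios were 0.08 ± 0.03 and 0.61 ± 0.04 in the library labelled shKSRP, and −0.22 ± 0.03 and 0.70 ± 0.05 with BMP2. The BMP2 value of Col4a2 is −0.88 on RefSeq transcripts alone and 0.08 on a fixed gene length, since 24.71 of its FPKM lay on a 3′ model of 3065 nt. Col4a5, a chain of other trimers, in kidney and smooth muscle, had 3.139 ± 0.20, 2.367 ± 0.19 and 1.713 ± 0.16 FPKM. Col4a3, Col4a4 and Col4a6 were at 0.0682 FPKM or less in every library.

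Type VI collagen surrounds muscle cells, and mutations in any of its main chains cause muscle disease in human. All 3 main chains were higher in the library labelled shKSRP than in mock, and Col6a1 and Col6a2 were higher with BMP2. Col6a1 (chr10:76171537-76188789, minus strand) had 158.2 ± 1.5 FPKM in the library labelled shKSRP, 201.1 ± 2.4 with BMP2 and 43.75 ± 1.1 in mock. Its log2 ratio was 1.83 ± 0.04 in the library labelled shKSRP and 2.18 ± 0.04 with BMP2. Col6a2, which lies 85.4 kb from Col6a1 on the same strand, had 74.06 ± 1.1, 129.3 ± 2.0 and 27.86 ± 0.71 FPKM in those libraries. Its log2 ratio was 1.38 ± 0.04 in the library labelled shKSRP and 2.17 ± 0.04 with BMP2.

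Col6a3, the longest chain of the 24, did not follow them with BMP2. It had 81.73 ± 0.88 FPKM in the library labelled shKSRP, 37.66 ± 0.64 with BMP2 and 26.90 ± 0.46 in mock (chr1:92663435-92740548, minus strand). Its log2 ratio was 1.57 ± 0.03 in the library labelled shKSRP and 0.47 ± 0.03 with BMP2. On the most abundant RefSeq transcript these were 0.78, under the threshold, and −0.29. The ratio of Col6a3 to Col6a1 was 0.517 ± 0.0075 in the library labelled shKSRP, 0.187 ± 0.0039 with BMP2 and 0.615 ± 0.019 in mock, and on a fixed gene length 0.446, 0.180 and 0.629. On RefSeq transcripts alone it was 0.357, 0.232 and 1.84, and the BMP2 library was lowest on all 3 scales. The 3 alternative exons of Col6a3, of 600, 603 and 618 nt, were held by 27.0%, 27.5% and 11.8% of the spanning FPKM in the library labelled shKSRP and by 19.3% each with BMP2. In mock no FPKM lay on a form that holds any of them, and the short form of 41 exons carried all 26.90 FPKM. As for Col2a1, reads on these exons were not counted, so this is an assignment and not a measured absence. Exons of this kind code for von Willebrand factor A domains at the N-terminal end of the chain.

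**Figure D4:**
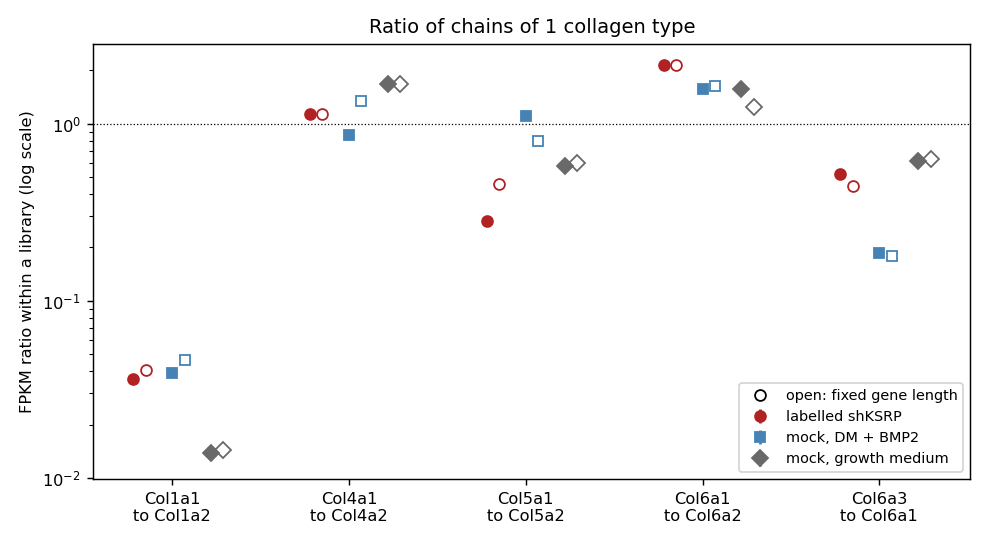
Ratio of FPKM between chains of 1 collagen type within each library, on a log axis, with filled symbols for the reported FPKM and open symbols for a fixed gene length; bars, mostly smaller than the symbols, are the error from the deposited intervals. Col1a1 to Col1a2 is 0.0363 in the library labelled shKSRP and 0.0393 with BMP2, against 0.0138 in mock, and Col6a3 to Col6a1 is 0.187 with BMP2.

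Types VIII and X form hexagonal networks. Col8a2 had 2.910 ± 0.20 FPKM in the library labelled shKSRP, 2.988 ± 0.21 with BMP2 and 0.3476 ± 0.087 in mock (chr4:125964038-125991574, plus strand). It rose in both, with log2 ratios of 1.54 ± 0.12 and 1.57 ± 0.12, which drop under the threshold with a pseudocount of 5, at 0.56 and 0.58. Its partner Col8a1, which shares a locus with Cmss1 so that the division of fragments is uncertain, had 19.63 ± 0.47, 17.28 ± 0.57 and 15.29 ± 0.57 FPKM.

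Col10a1, the chain of hypertrophic cartilage (chr10:34109787-34116891, plus strand), rose in the BMP2 library alone. It had 0.4199 ± 0.089 FPKM in the library labelled shKSRP, 6.640 ± 0.37 with BMP2 and 0.4411 ± 0.095 in mock. Its log2 ratio was −0.02 ± 0.13 in the library labelled shKSRP and 2.41 ± 0.12 with BMP2, and its whole FPKM lay on 1 RefSeq transcript in each library. Osteoblast markers were mixed beside it. Of 7 such markers 3 were at 1 FPKM or more in the library labelled shKSRP, 5 with BMP2 and 3 in mock, with list sums of 20.1, 90.4 and 39.3 FPKM. Alpl, the phosphatase of mineralising cells, had 0.447 ± 0.10, 12.8 ± 0.82 and 0.0518 ± 0.037 FPKM, and the osteoblast factor Sp7 had 0.527 ± 0.12, 8.12 ± 0.51 and 0.187 ± 0.073. The osteocalcin genes Bglap and Bglap2 had 1.21 ± 0.47 and 4.29 ± 1.00 FPKM in the library labelled shKSRP, 13.3 ± 1.6 and 43.0 ± 3.0 with BMP2, and 7.34 ± 1.2 and 23.2 ± 2.2 in mock. Runx2, an early osteoblast factor, had 13.6 ± 0.43, 12.8 ± 0.46 and 8.55 ± 0.34 FPKM, while Dlx5 was below 1 FPKM in all and Ibsp, a bone matrix glycoprotein, was listed at 0 in all. Their part in the collagen values was not tested.

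Among the other chains, 2 of the FACIT and multiplexin kind, which bind to fibrils or basement membranes, rose in the library labelled shKSRP. Col15a1, a multiplexin of the muscle basement membrane zone, had 2.410 ± 0.16 FPKM in the library labelled shKSRP, 0.2305 ± 0.053 with BMP2 and 0.1563 ± 0.043 in mock, a log2 ratio of 1.56 ± 0.09 over mock. Col14a1, a FACIT that binds type I fibrils, had 2.144 ± 0.23, 0.5346 ± 0.082 and 0.0532 ± 0.023 FPKM. Its log2 ratio was 1.58 ± 0.11 in the library labelled shKSRP, but on RefSeq transcripts alone it was −0.07, since all of its FPKM there lay on assembled models, 1 of which is only 51.8% within its RefSeq exons.

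Col7a1, the anchoring fibril chain of skin, fell in the library labelled shKSRP. It had 1.468 ± 0.22 FPKM in the library labelled shKSRP, 4.796 ± 0.54 with BMP2 and 7.219 ± 0.95 in mock, at log2 ratios of −1.74 ± 0.21 and −0.50 ± 0.21. This fall rests on short models. RefSeq held 2.52%, 3.38% and 4.0% of its FPKM, the locus is shared with the microRNA gene Mir711, and the ratio in the library labelled shKSRP was −0.54 on a fixed gene length. Col18a1, the source of endostatin, was the most abundant of this class, at 49.12 ± 0.85, 53.61 ± 1.2 and 34.32 ± 0.65 FPKM. Col16a1 had 2.620 ± 0.22, 6.487 ± 0.36 and 5.052 ± 0.29 FPKM, and Col17a1, a chain of hemidesmosomes, had 0.4955 ± 0.11, 2.029 ± 0.37 and 0.6571 ± 0.12. None of these last 3 was called against mock. For Col17a1 the log2 ratio with BMP2 was 0.87, or 1.49 with a pseudocount of 0.1. For Col16a1 it was 0.31, or 1.66 on RefSeq transcripts alone. In the library labelled shKSRP the Col16a1 ratio was −0.74, or −1.10 with the length trend removed.

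The 19 chains below 1 FPKM included cartilage, neural and epithelial ones. Col6a6, Col9a1, Col13a1 and Col20a1 were listed at 0 in every library, and the highest value among the 19 was 0.902 FPKM, of Col27a1 with BMP2. Col12a1 was not analysed here.

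Set directly against the BMP2 library, the library labelled shKSRP had 3 chains higher and 6 lower, beside 6.07% and 8.66% of all genes. Col15a1, Col6a3 and Col14a1 were higher, at log2 ratios of 1.47 ± 0.09, 1.10 ± 0.03 and 1.03 ± 0.13. Col2a1, Col10a1, Col24a1, Col7a1, Col16a1 and Col17a1 were lower, from −6.05 for Col2a1 to −1.02 for Col17a1. Only Col2a1 and Col10a1 kept this call under every alternative run. Col10a1, Col17a1 and Col24a1 reached 1 FPKM in the BMP2 library alone, and Col14a1 and Col15a1 in the library labelled shKSRP alone. That limit fixed their direction here, so these counts are not support for a trend.

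**Figure D5:**
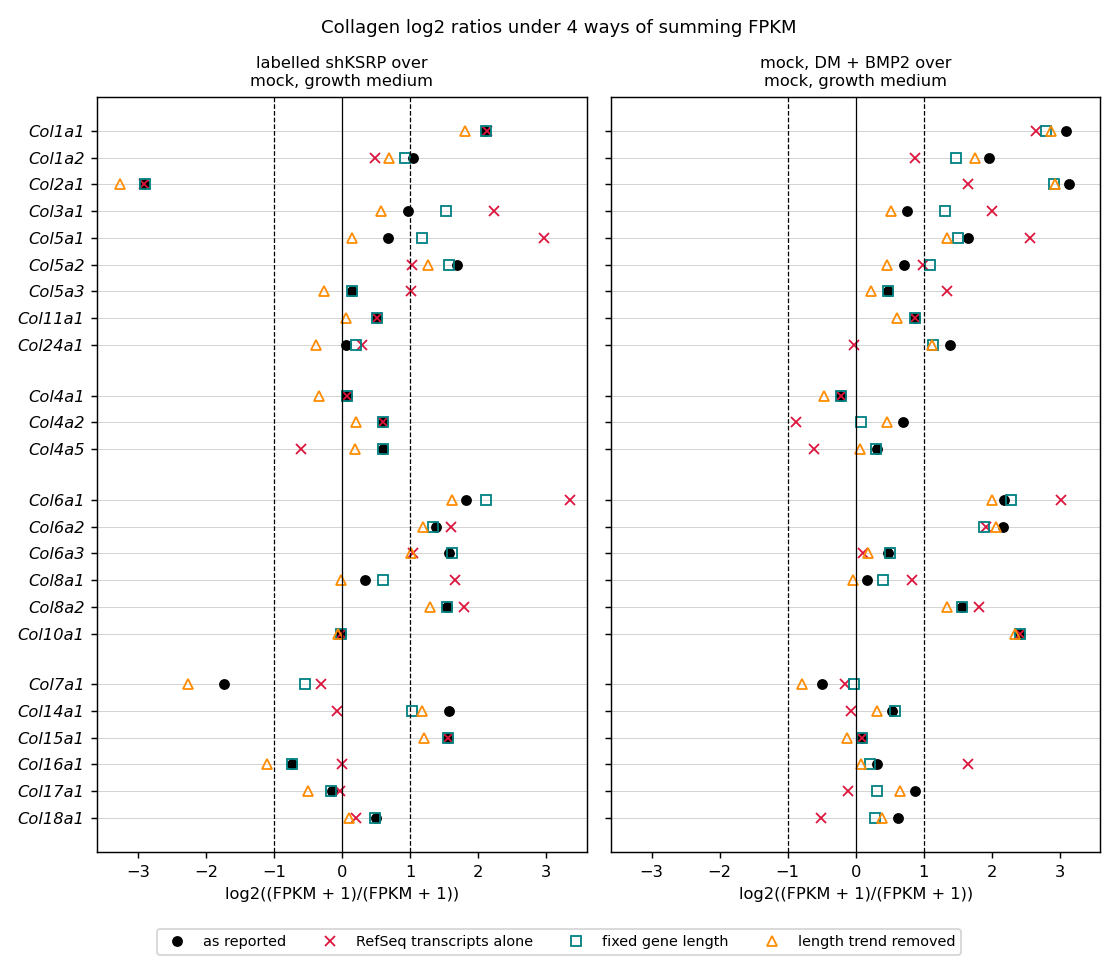
Log2 ratio of each collagen chain over mock in growth medium for the library labelled shKSRP (left) and mock with DM + BMP2 (right), computed as reported, on RefSeq transcripts alone, on a fixed gene length and with the length trend removed; dashed lines mark 2-fold. Col1a1, Col2a1, Col6a1, Col6a2 and Col8a2 lie past the lines under all 4 in both panels, while Col3a1 crosses the line at 1 in both.

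Of a list of 24 genes around collagen folding, modification and export in the endoplasmic reticulum, 22 were tested. Of these, 5 rose and 0 fell in the library labelled shKSRP, and 7 rose and 0 fell with BMP2, with median log2 ratios of 0.68 and 0.62. Not all are folding or modifying enzymes: Sparc and Tmem38b are among the 5, and Sparc among the 7. Over all genes 11.0% were higher and 12.9% lower in the library labelled shKSRP, 9.21% higher and 8.95% lower with BMP2, and the medians were −0.02 and 0.03. Plod2, which hydroxylates telopeptide lysines for crosslinks, had 34.48 ± 0.73 FPKM in the library labelled shKSRP, 47.07 ± 0.91 with BMP2 and 14.38 ± 0.53 in mock, log2 ratios of 1.21 and 1.64. Sparc, a collagen-binding glycoprotein, had 1904 ± 8.8, 1857 ± 8.2 and 690.8 ± 4.4 FPKM, log2 ratios of 1.46 and 1.43. P4ha3, a prolyl hydroxylase subunit, had 27.10 ± 0.83, 44.57 ± 1.8 and 12.16 ± 0.64 FPKM, log2 ratios of 1.09 and 1.79.

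Of the enzymes and partners that process, assemble and crosslink fibrils, 11 of a list of 15 were tested. Of these, 2 rose and 3 fell in the library labelled shKSRP and 2 rose and 0 fell with BMP2, beside all-gene shares of 11.0% and 12.9%, and of 9.21% and 8.95%. The median log2 ratios were −0.19 and 0.15. Adamts2, the procollagen N-proteinase, had 6.078 ± 0.31 FPKM in the library labelled shKSRP, 4.898 ± 0.30 with BMP2 and 1.828 ± 0.18 in mock, and Lox, a lysyl oxidase, had 227.3 ± 2.2, 353.9 ± 3.0 and 155.2 ± 2.0. Of the other lysyl oxidases, Loxl4 rose in the library labelled shKSRP, at 6.858 ± 0.27 FPKM against 2.396 ± 0.21 in mock. Loxl2 fell, at 0.2296 ± 0.051 against 6.542 ± 0.35, and so did Loxl3, at 22.01 ± 0.57 against 53.12 ± 0.93. Loxl1 was not called in that library against mock, at a log2 ratio of 0.63. Pcolce2, which enhances C-propeptide removal, fell there too, at 11.60 ± 0.61 against 72.17 ± 1.6 FPKM, a log2 ratio of −2.54.

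Of 5 receptor genes tested in a list of 9, 2 rose in the library labelled shKSRP and 0 with BMP2, beside 11.0% and 9.21% of all genes, with median log2 ratios of 0.94 and 0.46. Itga11, an integrin subunit for fibrillar collagen, had 2.386 ± 0.17 FPKM in the library labelled shKSRP, 0.4423 ± 0.076 with BMP2 and 0.0478 ± 0.025 in mock, and the receptor kinase Ddr2 had 15.09 ± 0.36, 4.733 ± 0.21 and 5.274 ± 0.23. Itga11 passed the limit of 1 FPKM through the library labelled shKSRP alone, so its direction was fixed by that limit. Of 3 degrading enzymes tested in a list of 7, 0 were called in the library labelled shKSRP and 2 rose with BMP2, beside the same shares, with medians of 0.39 and 1.60. Whether the comparisons differ for these short lists was not tested. Mmp2, a gelatinase, had 34.12 ± 1.3 FPKM in the library labelled shKSRP, 126.8 ± 1.7 with BMP2 and 25.89 ± 0.81 in mock, and Mmp14, a membrane collagenase, had 227.3 ± 2.3, 512.2 ± 3.7 and 168.1 ± 1.7.

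Of 19 regulators tested in a list of 25 reported at collagen genes, 2 rose and 4 fell in the library labelled shKSRP and 1 rose and 2 fell with BMP2, beside 11.0% and 12.9%, and 9.21% and 8.95%, of all genes. The median log2 ratios were −0.12 and −0.04, close to those of all genes. The gene that rose with BMP2 was Sp7, whose levels stand above, at a log2 ratio of 2.94. Sp7 passed the limit of 1 FPKM through the BMP2 library alone, so its direction was fixed by that limit. Ybx1, a Y-box protein and in human cells a repressor of type I collagen genes, had 384.7 ± 5.4, 190.2 ± 3.0 and 827.0 ± 14 FPKM, log2 ratios of −1.10 and −2.11. Tcf4, an E protein, and Smad3, a carrier of TGF-β signals, rose in the library labelled shKSRP, at log2 ratios of 1.52 and 1.02, and Twist2, a mesenchymal repressor, fell, at −1.58. Cebpz, a CCAAT-binding factor, fell in both, at −1.14 in the library labelled shKSRP and −1.36 with BMP2. The longest RefSeq transcript of a gene and its ratio to mock were related over all genes, as given above, and these lists were not corrected for it.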

How the data were processed

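Polyadenylated RNA of 3 C2C12 libraries, 1 per group, was sequenced on an Illumina HiSeq 2000 from fragments of 250 ± 25 bp after 18 cycles of PCR, per the labels' protocols. For each library the authors deposited Cufflinks transcripts with an FPKM and a 95% interval, as the file headers and attributes show, and a score per transcript as deposited, which was not used. Tools listed in the submitters' processing notes are Cufflinks 1.3.0, TopHat 1.4.1, Bowtie 0.12.7 and CASAVA 1.8, with mm9 as the build, and their parameters are not stated in the sources used here. Strandedness is not given either, so reads of overlapping opposite genes cannot be told apart.

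Gene FPKM was the sum over RefSeq transcripts of a symbol and the assembled transcripts of the same locus, shared loci being resolved by the greatest exon overlap. Of 28222 accessions, 27563 took a symbol from a RefSeq table, 166 from a GENCODE table and 216 from the files, and 277 kept the accession. Genes with 1 FPKM or more in any library and 300 nt were compared with a pseudocount of 1, with no test. Fragment numbers were estimated from the interval widths of lone transcripts, with 2000 nt or more and 5 FPKM or more. The code for ratios and the length trend was run on simulated gene FPKM with planted changes, a planted length trend and counting noise only. The simulation held no transcript models, so it says nothing on how fragments are divided among them. Python 3.11.15, numpy 2.4.6 and matplotlib 3.10.9 were used.

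The collagen chains, the gene lists and the alternatives were chosen with earlier results of these data known. All chains at 1 FPKM or more are named. From each list the rule names up to 2 called genes with the highest and up to 2 with the lowest ratio over mock in each comparison, leaving out genes listed at 0. Loxl1 and Loxl3 are named outside this rule, and Tmem38b too. A fixed gene length divides the fragments of all transcripts by the longest RefSeq transcript. Other alternatives were RefSeq transcripts alone, the most abundant RefSeq transcript, pseudocounts of 0.1 and 5, other limits on low values, 2 scalings, a length trend removed as a running median over 601 genes, and a threshold of 1.5. Promoter entries were found for 35 of 43 chains.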

Additional observations from a re-analysis of the deposited data

How the results depend on the processing

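Against mock, the calls of Col1a1, Col2a1, Col5a2 and Col6a1 in the library labelled shKSRP, and of Col1a1, Col2a1, Col5a1, Col6a1, Col6a2 and Col10a1 with BMP2, held under all 11 alternatives. The counts of higher chains in both comparisons with mock stayed within 1.5 times the reported 9, but the members changed. In the library labelled shKSRP, 7 of the 9 were kept on RefSeq transcripts alone and 6 on the most abundant RefSeq transcript. Col3a1, Col5a1, Col5a3 and Col8a1 entered under both. With BMP2, 7 of the 9 were kept under each of these settings. The limit of 5 FPKM left 16 chains to count. The 2 chains lower in the library labelled shKSRP than in mock became 1 on RefSeq transcripts alone, on the most abundant RefSeq transcript, on a fixed gene length and with a pseudocount of 5. The 3 chains higher in the library labelled shKSRP than with BMP2 became 1 with a pseudocount of 5, with a limit of 5 FPKM and with the length trend removed, and 0 at a threshold of 1.5. The 6 lower became 3 on RefSeq transcripts alone and on the most abundant RefSeq transcript, and 2 on a fixed gene length, with a pseudocount of 5 and at a threshold of 1.5. On RefSeq transcripts alone and on the most abundant one, called ratios turned to −0.07 for Col14a1 (the library labelled shKSRP over mock), −0.03 for Col24a1 (BMP2 over mock), and 0.08 for Col17a1 and 0.32 for Col24a1 (the library labelled shKSRP over BMP2), because those forms leave out assembled transcripts. Over all genes, RefSeq transcripts alone made 56.3% of calls higher in the library labelled shKSRP over mock, beside 46.0% as reported, and 52.1%, beside 41.2%, over BMP2. Upper quartile scaling moved the median of all genes to 0.09 in the library labelled shKSRP over mock and turned its calls to 1518 higher and 1252 lower (54.8% higher), beside 1264 and 1484 as reported. Of the log2 ratios of the 24 chains under the alternatives, 229 moved by less than their interval error, 339 moved by more and 8 called ones reversed. No paired analysis was possible because each group is 1 library and the labels carry no replicate numbers, and for the same reason no library could be left out. Depth limits the chains at 1 to 10 FPKM, where the interval error had a median of 6.75% in the library labelled shKSRP, 8.13% with BMP2 and 7.87% in mock.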
